A study of Mus musculus with 12 samples.

Results

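Colon and whole blood of the same mice were compared in the 3 mice of the series whose colon held little S100a8 RNA, a neutrophil alarmin transcript. These were mouse 2, mouse 4 and mouse 8, and their 6 libraries were chosen from the 12 libraries of 6 mice by a limit of 100 normalized counts of S100a8 in the colon. The colon of mouse 8, the highest inside the limit, held 75.6 normalized counts, and the colon of mouse 7, the lowest outside it, held 1888. These values chose the mice, so they are given without a test, and the levels of neutrophil and inflammatory genes are described in the same way.

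The mice were male C57BL/6 animals obtained at 8 weeks of age, and the series compared acute colitis with time-matched controls. Mice 2 and 4 were labelled as having ulcerative colitis (UC), which in this protocol meant 1.5% dextran sulfate sodium, a polysaccharide that injures the colon epithelium, in the drinking water for 7 days. Mouse 8 was labelled as a control, which received the same water without it, and all animals were killed on day 8. The labels therefore put mice of both groups on the low side of the S100a8 limit, and the same was so on the high side, where mouse 1 was labelled UC and mice 7 and 9 control. Whether each mouse's disease label is right was not tested, and no result here compares the disease groups. Each tissue was represented by 3 libraries of total RNA depleted of ribosomal RNA, 1 from each mouse. Colon RNA was isolated from homogenized whole tissue with a miRNeasy kit and depleted with Ribo-Zero Gold. Blood RNA was isolated with an RNeasy Protect Animal Blood kit and depleted with Globin-Zero Gold, which also removes globin RNA. Tissue and kit cannot be told apart in these libraries, and globin genes were not compared.

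The source name of every sample gave the opposite tissue to its tissue label, so the tissue label was checked against marker genes. Levels are given as CPM, the counts scaled to an effective library size that was adjusted between libraries, so a CPM is not a share of the library. Epcam, an adhesion protein of epithelial cells, was at 655, 693 and 895 CPM in the colon libraries of mice 2, 4 and 8 and at 1.84, 1.48 and 1.49 CPM in their blood libraries. Krt8, a keratin of simple epithelia, was at 3558, 3856 and 4331 CPM in colon and at 2.3, 0 and 0.284 CPM in blood. Alas2, the first enzyme of haem synthesis in red cell precursors, was at 13.3, 35.7 and 35.7 CPM in colon and at 217792, 117235 and 207063 CPM in blood. No library of one tissue came near the other for any of the 3 genes, and the tissue labels held in all 6 libraries. The directions of these 3 genes were thus used to settle the tissues, and their p-values below add nothing on direction. The libraries totalled 74123293 to 103662306 counts in colon and 80867247 to 140461769 in blood. Between 54.9% and 65.4% of the blood counts lay in genes of the 7SL RNA, the RNA of the signal recognition particle, against 4.9% to 5.37% in colon.

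Whole blood carries RNA of reticulocytes, the youngest circulating red cells, which have lost their nucleus but still hold mRNA for haem enzymes and membrane proteins, together with RNA of platelets and of circulating leukocytes. The colon wall holds an absorptive and mucus-secreting epithelium over connective tissue, vessels, nerves, smooth muscle and resident immune cells. In bulk samples of this kind, fewer cells of a type and less RNA per cell cannot be told apart.

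The tissue difference was tested in 20661 genes with edgeR's quasi-likelihood test, with the mouse as a block. A gene was called when its Benjamini-Hochberg adjusted p was at most 0.05 and its log2 fold change, colon minus blood, was over 1 in size. By this rule 7125 genes, 34.5% of those tested, were called higher in colon and 4215, or 20.4%, higher in blood. Counts of called list members below are to be read against these 2 shares. The libraries of the 2 tissues did not overlap for more genes, with 46.7% of genes above in every colon library and 29.8% above in every blood library. The median log2 fold change of all tested genes was 0.43. With libraries scaled by their totals alone the median was 1.47, and the split became 11275 genes called higher in colon and 2590 genes called higher in blood. Of the 9321 genes that were not called, 2910 had a 95% interval of the difference that lay within -1 to 1. Blood held no count in any library for 2458 tested genes, and colon held none for 198.

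**Figure D1:**
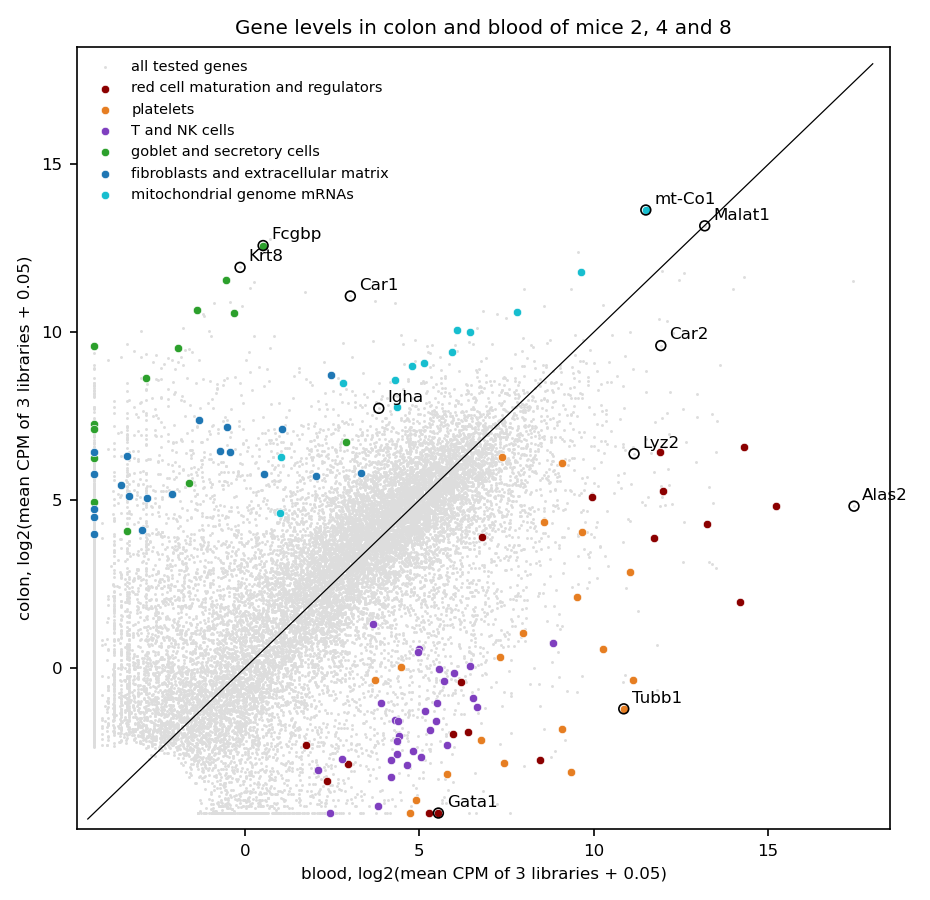
Mean level of each tested gene in blood (horizontal axis) and colon (vertical axis), as log2 of the mean CPM of 3 libraries plus 0.05. Coloured points are genes of 6 lists and named genes are ringed: red cell and platelet genes lie far below the diagonal, with Alas2 at a mean of 28.2 CPM in colon and 180697 CPM in blood, and epithelial genes far above it, with Krt8 at 3915 and 0.861 CPM.

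The difference was not evenly spread over the libraries. After 7SL, globin and 45S rRNA loci and the genes dropped from scaling had been left out, 724 to 890 genes made up 50% of the counts of a colon library. In blood 60, 145 and 67 genes did so in mice 2, 4 and 8. Alas2 alone held 15.8%, 11.7% and 15.2% of the remaining counts of these blood libraries, and the gene with the most colon counts, the mitochondrial mt-Co1, held 1.82% to 1.87%. A count was found for 26326 to 27407 genes in colon libraries and for 19431 to 21019 in blood libraries.

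**Figure D2:**
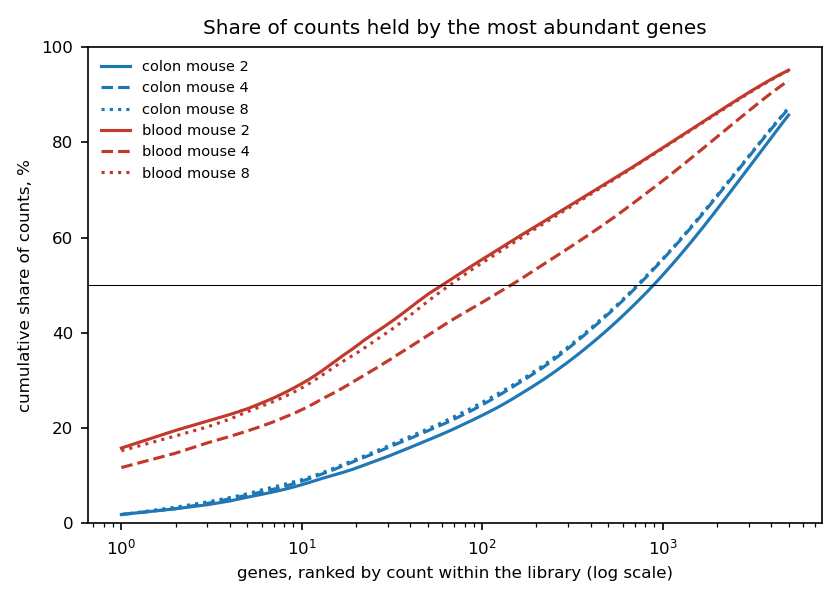
Cumulative share of counts (vertical axis, percent) over genes ranked from the most to the least abundant (horizontal axis, log scale), 1 line per library. The 3 blood lines rise early and reach 50% at 60 to 145 genes, and the colon lines reach it at 724 to 890 genes.

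Genes of red cells were mostly higher in blood. Of the 16 genes tested for haem synthesis and iron import, 12 were higher in blood and 2 in colon. All but 1 of 19 genes of the red cell membrane and its skeleton and all 18 genes of red cell maturation were higher in blood, against the 20.4% of all genes. Their median log2 fold changes were -2.08, -7.30 and -7.71. Alas2 was lower in colon by a log2 fold change of -12.71 ± 1.77 (SE; adjusted p = 0.00222), a 6718-fold difference, and without mouse 8, when 2 mice remained, by -12.82 (adjusted p = 0.064). Fech, the enzyme that inserts iron into haem, was at 37.5, 44.4 and 42.5 CPM in colon and 12368, 6258 and 11749 CPM in blood (-7.88 ± 0.62, adjusted p = 3.00e-04). Slc25a37, the mitochondrial iron importer mitoferrin, was 284-fold higher in blood. The middle enzymes of the pathway differed less, with Urod 17.1-fold and Cpox 2.45-fold higher in blood. Alad, which makes the first pyrrole, was not called higher in either tissue (0.74, adjusted p = 0.0366). Steap3, a ferrireductase, and Slc11a2, an iron transporter that enterocytes also use, were called higher in colon, by log2 fold changes of 2.19 ± 0.21 and 1.38 ± 0.31. The call for Slc11a2 was lost without mouse 4 (1.08, adjusted p = 0.0693).

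Genes of the red cell membrane and its skeleton were far lower in the colon libraries, and some were near absent there. Slc4a1, the band 3 anion exchanger, was at 0.197, 0.985 and 0.553 CPM in colon and 5465, 1641 and 3622 CPM in blood (log2 fold change -12.61 ± 1.17, adjusted p = 5.13e-04). Every blood library was above 1000 CPM for this gene, and no colon library reached 1 CPM. Epb41, the gene of protein 4.1, which ties actin to the membrane skeleton, was at 72.5, 69.4 and 69.6 CPM in colon and 11142, 4037 and 8104 CPM in blood, 102-fold higher there. Rhag, of the Rh complex, had no colon count and was at 206, 154 and 224 CPM in blood, at least 7015-fold higher there against a floor of 3 counts in each colon library. Xk was the 1 membrane gene not called (-0.71, adjusted p = 0.0331). Among maturation genes, Tent5c, a poly(A) polymerase gene, and Bnip3l, the receptor for removal of mitochondria from reticulocytes, were 1277-fold and 211-fold higher in blood. Gata1, the red cell and megakaryocyte transcription factor, had no colon count and was at 48.3, 37 and 55.2 CPM in blood, at least 1690-fold higher. Klf1, another red cell transcription factor, reached no more than 4.92 CPM in blood and was 19.4-fold higher there.

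The blood libraries differed among themselves in this signal. Summed over the 48 red cell genes called higher in blood, the level was 389485, 199095 and 365773 CPM in mice 2, 4 and 8 and 765, 837 and 775 CPM in their colons. The blood of mouse 4 was the lowest of the 3 for 46 of the 48 genes. Its blood levels still exceeded every colon library for these genes, and the fold changes above span this spread in their errors.

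The start regions of 5 of these genes are shown because Alas1 and Alas2, which code for the same step of haem synthesis, were called in opposite directions and because the other red cell and epithelial members stood far apart in the comparison. Each is RefSeq's window on GRCm38.p6, 250 bases before to 50 bases after the gene's start, written 5′ to 3′ on the gene's strand. Capitals mark AGATAA, the core bound by GATA factors, and TATAAA, the letters of a TATA box. Both strands were searched without regard to distance from the start. On the opposite strand the motifs read TTATCT and TTTATA, and the 2 TATA forms overlap in Krt8. Alas2 lies at chrX:150547375-150570638 on the plus strand (window chrX:150547167-150547466). Epb42, the gene of protein 4.2 of the red cell membrane, lies at chr2:121017891-121037072 on the minus strand (window chr2:121036828-121037127). Alas1, the housekeeping counterpart of Alas2, lies at chr9:106233455-106248654 on the minus strand. Its window is chr9:106247905-106248204, the more upstream of 2 listed, and lies inside the annotated gene, which starts further upstream. Krt8 lies at chr15:101996698-102004482 on the minus strand (window chr15:102004293-102004592). Slc26a3, the chloride-bicarbonate exchanger of colonocytes, lies at chr12:31390871-31473917 on the plus strand (window chr12:31437969-31438268, inside the annotated gene, which has a more distal start in the annotation).
Alas2: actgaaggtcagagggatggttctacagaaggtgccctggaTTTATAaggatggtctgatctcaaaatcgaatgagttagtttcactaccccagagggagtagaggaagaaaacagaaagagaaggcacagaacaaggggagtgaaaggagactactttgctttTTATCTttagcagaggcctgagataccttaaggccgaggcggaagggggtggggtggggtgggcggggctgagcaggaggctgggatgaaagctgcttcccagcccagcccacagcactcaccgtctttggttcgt
Epb42: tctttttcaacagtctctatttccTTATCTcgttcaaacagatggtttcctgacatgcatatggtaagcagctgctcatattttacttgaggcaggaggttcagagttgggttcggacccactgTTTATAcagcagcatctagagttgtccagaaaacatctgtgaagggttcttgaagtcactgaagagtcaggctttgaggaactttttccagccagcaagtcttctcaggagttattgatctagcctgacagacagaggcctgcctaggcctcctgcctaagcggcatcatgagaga
Alas1: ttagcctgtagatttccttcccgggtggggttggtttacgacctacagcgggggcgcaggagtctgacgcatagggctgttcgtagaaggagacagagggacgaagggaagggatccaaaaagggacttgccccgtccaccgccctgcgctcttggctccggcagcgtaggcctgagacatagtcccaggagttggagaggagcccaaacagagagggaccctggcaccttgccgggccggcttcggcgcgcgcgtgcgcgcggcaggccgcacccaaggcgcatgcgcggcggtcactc
Krt8: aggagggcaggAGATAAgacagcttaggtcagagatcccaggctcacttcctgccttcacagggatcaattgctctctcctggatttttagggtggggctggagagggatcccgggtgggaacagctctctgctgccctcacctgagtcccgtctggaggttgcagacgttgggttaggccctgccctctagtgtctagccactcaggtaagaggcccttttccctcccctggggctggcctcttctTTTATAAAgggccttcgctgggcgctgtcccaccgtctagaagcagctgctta
Slc26a3: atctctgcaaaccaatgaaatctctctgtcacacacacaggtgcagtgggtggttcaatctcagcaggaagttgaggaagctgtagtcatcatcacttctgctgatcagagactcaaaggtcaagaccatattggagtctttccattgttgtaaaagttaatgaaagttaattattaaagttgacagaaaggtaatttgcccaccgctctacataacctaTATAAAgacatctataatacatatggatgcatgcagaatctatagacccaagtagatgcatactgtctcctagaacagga
The Alas2 and Epb42 windows hold both motifs, each on the opposite strand. The Krt8 window, that of an epithelial marker, also holds both. The Alas1 window holds neither. The Alas1 and Slc26a3 windows lie inside the annotated gene, and those of Epb42 and Krt8 lie mostly inside theirs. Across 32851 RefSeq windows AGATAA was found in 11.2%, in 9.33% of the 3354 windows of genes higher in blood and in 7.32% of the 6123 windows of genes higher in colon. TATAAA was found in 13.6%, 8.91% and 9.68% of the same windows. The red cell motif CCACACCC, which Klf1 binds, was found in 3.56%, 4.44% and 3.92%, and CAAAGTC, a core of sites for the enterocyte factor Hnf4a, in 4.44%, 5.52% and 4.49%. These are matches of letters on either strand and not measured binding sites.

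The genes whose windows are shown differed as follows. Epb42 was at 0.0819, 0.14 and 0.165 CPM in the colon of mice 2, 4 and 8 and at 668, 258 and 502 CPM in blood (log2 fold change -11.74 ± 0.54, adjusted p = 9.69e-05). Alas1 was at 48.4, 31.3 and 31.5 CPM in colon and 11.9, 8.95 and 5.5 CPM in blood (2.11 ± 0.21, adjusted p = 6.30e-04). Alas1 thus ran the other way from Alas2, with no overlap between tissues for either gene. Slc26a3 was at 682, 1249 and 1196 CPM in colon and 1.1, 0 and 0.213 CPM in blood (11.62 ± 1.26, adjusted p = 8.96e-04).

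All 20 platelet genes were called higher in blood, with a median log2 fold change of -8.70. Ppbp, the precursor of platelet chemokines, was at 0.377, 1.26 and 0.565 CPM in colon and 1882, 2259 and 2542 CPM in blood (-11.71 ± 0.59, adjusted p = 1.08e-04). Tubb1, the platelet beta-tubulin, was at 1716, 1610 and 2263 CPM in blood and under 1 CPM in every colon library, a 5619-fold difference. Itga2b, the alpha chain of the fibrinogen receptor, was 889-fold higher in blood, and Plek, the pleckstrin gene, 285-fold. Among the blood libraries Ppbp was lowest in mouse 2, and Tubb1, like most of the red cell genes, in mouse 4. The smallest called difference of the list was that of Clec2d, at -1.13.

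Lymphocyte genes were also blood genes in these mice. All 30 T and NK cell genes and all 18 B cell genes were called higher in blood, with medians of -6.98 and -5.83. Lck, the kinase of the T cell receptor, was at 1.06, 1.09 and 0.848 CPM in colon and 106, 87 and 72.7 CPM in blood, 88.1-fold higher there. Ms4a1, which codes for CD20 of B cells, was at 2.42, 5.13 and 0.706 CPM in colon and 266, 335 and 200 CPM in blood, 121-fold higher there. For both genes the colon of mouse 8 was the lowest colon library, by little for Lck. Of 66 T cell receptor segment genes tested, 62 (93.9%) were called higher in blood and 0 in colon. Of 177 immunoglobulin segment genes, 41 (23.2%) were higher in blood, a share near the 20.4% of all genes, and 3 (1.69%) in colon, against 34.5% of all genes.

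Antibody genes divided by class. Ighm, the IgM constant region, was at 8.4, 24 and 5.25 CPM in colon and 586, 558 and 390 CPM in blood (-5.63 ± 0.46, adjusted p = 3.34e-04). Igha, the IgA constant region, was at 200, 329 and 109 CPM in colon and 14.6, 14.6 and 13.6 CPM in blood (3.76 ± 0.33, adjusted p = 4.43e-04). IgM was thus the blood class and IgA the colon class, and the tissues did not overlap for either. Jchain, which joins IgA into dimers, was 17-fold higher in colon, and Pigr, the epithelial receptor that carries IgA into the lumen, was at 1934, 2028 and 1759 CPM in colon against 1.33, 0.401 and 0.355 in blood. Igha and Jchain varied together over the colon libraries, each highest in mouse 4 and lowest in mouse 8. Of the 13 genes tested for plasma cells and IgA, 5 were higher in colon and 2, Mzb1 (-3.69 ± 0.40) and the activated lymphocyte factor Irf4 (-3.47 ± 0.17), in blood, which is near the 34.5% and 20.4% of all genes and no result about the list. The IgG genes were low in both tissues, and Ighg2b was not called (-0.11, 95% interval -1.97 to 1.75).

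Genes of mononuclear phagocytes split between the tissues. Of 18 genes of tissue macrophages and dendritic cells, 8 were higher in colon and 8 in blood, against 34.5% and 20.4% of all genes. Those higher in blood included the dendritic cell genes Itgax, Zbtb46, Flt3, Cd209a and Clec9a. Their log2 fold changes were -1.92, -1.77, -3.15, -3.47 and -2.90. With libraries scaled by their totals alone Itgax (-0.87) and Zbtb46 (-0.73) were not called. Colon held the complement genes of resident macrophages: C1qb was at 12.5, 19.8 and 15.3 CPM there with no blood count, at least 149-fold higher, and C1qa was 53.8-fold higher. Mertk, a receptor for dying cells, was at 41, 51.2 and 59 CPM in colon and 0.368, 0 and 0.142 CPM in blood (log2 fold change 8.49 ± 0.73, adjusted p = 4.08e-04). Mrc1 and Cd163, scavenger receptors of tissue macrophages, were 9.77-fold and 19.5-fold higher in colon. Lyz2, the myeloid lysozyme, was at 73.8, 110 and 66.2 CPM in colon and 1863, 2827 and 2166 CPM in blood (-4.79 ± 0.31, adjusted p = 1.89e-04). Adgre1, which codes for F4/80, and Csf1r, the receptor for macrophage growth factor, were also higher in blood, 6.04-fold and 3.96-fold. Cd68 was not called (-0.15, 95% interval -0.83 to 0.52). Of 12 blood monocyte genes, 8 were higher in blood, among them Spn, which codes for CD43, at 117-fold and the chemokine receptor Ccr2 at 21-fold. Plac8 and Fn1 of that list were called higher in colon, by 4.46-fold and 5.15-fold. Plac8 is also expressed by colon epithelium, and Fn1, fibronectin, by fibroblasts.

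Neutrophil and inflammatory genes are described only, because the mice were picked on S100a8 in the colon. S100a8 was at 0.311, 0.21 and 0.706 CPM in colon and 437, 351 and 267 CPM in blood, and its partner S100a9 at 0.156, 0.295 and 1.21 CPM in colon and 745, 797 and 665 CPM in blood. Of 20 neutrophil genes 15 passed the filter on low counts, and their log2 fold changes ran from -12.11 to 5.76. Called members are not counted for the neutrophil and inflammatory lists, since the choice of mice by colon S100a8 partly fixes their colon levels. Ly6g was at 69.1, 154 and 163 CPM in colon and 2.34, 2.21 and 2.23 CPM in blood, higher in colon than in blood. It belongs to a family of close copies whose reads the authors' counting could share out, so this value is uncertain. Cd177 was at 34.5, 31.6 and 33.5 CPM in colon and 13.6, 12.5 and 9.22 CPM in blood. Il1b, the interleukin-1 beta gene, was at 1.17, 0.194 and 0.294 CPM in colon and 166, 205 and 149 CPM in blood. Of the inflammatory list, 12 genes passed the filter. C3 was at 42.3, 43.5 and 35.6 CPM in colon and 14.4, 17.8 and 10 CPM in blood, and Nos2 was at 0.729, 1.52 and 1.41 CPM in colon with no blood count. Of 14 genes of mast cells and eosinophils 8 were tested. Of these, 4 were called higher in blood and 1 in colon, against 20.4% and 34.5% of all genes. Kit, which interstitial pacemaker cells of the gut also express, was 12.5-fold higher in colon.

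Epithelial genes gave the clearest colon signal. All 18 genes of epithelial structure, 24 of 25 genes of colonocyte transport and metabolism, and all 14 tested genes each of goblet and secretory cells and of enteroendocrine and tuft cells were called higher in colon, against 34.5% of all genes. Their median log2 fold changes were 9.42, 11.54, 13.07 and 10.02, and with genes absent from blood set at their lower bound the last 3 became 8.92, 11.05 and 5.42. Krt8 was higher in colon by 13.02 ± 1.49 (adjusted p = 0.0011) and Epcam by 8.86 ± 0.32 (adjusted p = 9.03e-05). Krt19, a keratin, and Lgals4, a galectin of the gut lining, were at means of 1893 and 2376 CPM in colon and 0.49 and 3.23 CPM in blood. Vil1, the microvillus protein villin, was at 462, 611 and 662 CPM in colon and 0, 0.0501 and 0 CPM in blood.

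Transporters of the absorptive cell were all colon genes with 1 exception. Car1, a carbonic anhydrase, was at 1409, 2206 and 2879 CPM in colon and 8.46, 7.17 and 8.69 CPM in blood (8.01 ± 0.43, adjusted p = 1.20e-04). Aqp8, a water channel, was at 239, 482 and 428 CPM in colon and no more than 0.248 CPM in blood. Slc26a2, a sulfate transporter that supplies mucin sulfation, was 91.4-fold higher in colon. Slc26a2, Slc26a3, Car1 and Aqp8 were each lowest in the colon of mouse 2. Car2 was the exception, at 795, 814 and 726 CPM in colon and 4363, 2296 and 5012 CPM in blood (-2.25 ± 0.42, adjusted p = 0.00624). It is also a carbonic anhydrase of red cells. Without mouse 8 it was at -1.96 (adjusted p = 0.0552).

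Mucus genes were among the colon genes with the highest CPM. Fcgbp, a mucus scaffold protein, was at 5193, 6832 and 6403 CPM in colon and 4.18, 0 and 0 CPM in blood. Clca1 was at 2091, 4124 and 2841 CPM and Muc2, the gel-forming mucin, at 1642, 1421 and 1808 CPM in colon, with blood counts in mouse 2 alone for both. Tff3, a trefoil peptide of goblet cells, was at 597, 978 and 737 CPM in colon with no blood count, at least 7236-fold higher. Outside the lists, Lypd8, which keeps flagellated bacteria from the epithelium, was at 5222, 8025 and 7828 CPM in colon and 4.78, 0 and 0 in blood, and Dmbt1, a mucosal scavenger protein, at 3187, 5563 and 5652 CPM against 4.96, 0.376 and 0.603. Sprr2a1 and Sprr2a2, at 1411 to 3634 CPM in colon, are near-identical copies whose counts could be shared out. Ahnak, a large scaffold protein, was high in colon with a sizeable blood level as well, at 5531, 4763 and 5701 CPM in colon and 685, 804 and 778 CPM in blood.

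Hormone genes had little or no blood signal. Pyy, the peptide YY gene of L cells, was at 63.1, 48.1 and 64.6 CPM in colon with no blood count, at least 550-fold higher. Chgb and Chga, granule proteins, were at least 469-fold and 323-fold higher, and Insl5, an insulin-like peptide of colon L cells, was at 42.8, 36.1 and 27.9 CPM in colon with a blood count in mouse 4 alone. Of the 13 genes tested for intestinal stem cells, 11 were called higher in colon. Lgr5, the stem cell receptor, was at 7.47, 6.03 and 6.77 CPM in colon and 0.138, 1.03 and 0.106 CPM in blood (4.35 ± 0.79, adjusted p = 0.006). Cd44, which leukocytes carry as well, was called higher in blood, 11-fold.

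Blood levels of genes from the epithelial lists were not alike in the 3 mice. Of the 74 epithelial genes called higher in colon, 22 had no count in any blood library and 57 had a mean blood level under 1 CPM. Of the 52 with a blood count, the highest blood level was in mouse 2 for 34 genes, in mouse 4 for 13 and in mouse 8 for 5. Summed over the 74 genes the blood libraries held 412, 334 and 359 CPM and the colon libraries 36712, 47249 and 46575 CPM. Of the blood sums, goblet and secretory genes held 6.79 to 18.1 CPM and gut epithelial transcription factors 5.35 to 11.8 CPM. Which cells the blood counts came from was not tested.

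The connective tissue, muscle and nerves of the gut wall were visible in the colon libraries. All 20 genes of fibroblasts and extracellular matrix were higher in colon, with a median of 8.26 (7.84 with genes absent from blood at their bound). Col3a1, a fibrillar collagen, was at 534, 402 and 348 CPM in colon and 5.56, 8.67 and 2.16 CPM in blood (6.45 ± 0.44, adjusted p = 2.15e-04). Dcn, the proteoglycan decorin, was 496-fold higher in colon. Of 18 smooth muscle genes, 13 were higher in colon, 1 in blood, and 4 were not called. Myh11, the smooth muscle myosin, was at 1751, 1251 and 1281 CPM in colon and 0.965, 0.226 and 0 CPM in blood (12.17 ± 0.92, adjusted p = 2.72e-04). Acta2, Actg2 and Tagln were highest in the colon of mouse 2, and Tagln was at 807, 675 and 548 CPM. Myl9, a myosin light chain that platelets also use, was called higher in blood, 2.72-fold, and Flna, filamin A, was not called (-0.63, 95% interval -1.34 to 0.09). With libraries scaled by their totals alone Myl9 was no longer called (-0.40) and Flna was at 0.42.

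Of the 14 endothelial genes tested, 12 were higher in colon, among them Lyve1 of lymphatic vessels at 17.1-fold and Cdh5, which codes for VE-cadherin, at 8.53, 6.43 and 7.98 CPM in colon and 0, 0.2 and 0 CPM in blood. Pecam1 and Esam, which platelets and leukocytes share with endothelium, were called higher in blood, 9.17-fold and 12.4-fold. Of 18 genes of enteric neurons and glia, 16 were higher in colon, and blood held no count for 12 of them. Vip, a relaxing neuropeptide, was at 19.1, 19.9 and 8.68 CPM in colon, and Ret, the receptor that guides enteric neurons, at 8.42, 7.53 and 3.85 CPM. For both genes the colon of mouse 8 was the lowest. Gfap, a glial filament gene, went the other way, at 2.8, 2.15 and 2.14 CPM in colon and 11.5, 7.99 and 13 CPM in blood (-2.18 ± 0.26, adjusted p = 0.00124). Of 12 markers of other tissues, such as pancreas, fat and skeletal muscle, 4 passed the filter on low counts and 3 were called higher in colon. These were the muscle genes Ckm and Acta1 and the elastase gene Cela1, the highest, at 193, 160 and 173 CPM there. The fat gene Adipoq was not called (3.52, adjusted p = 0.112). The pancreas gene Prss1 had no count in these libraries.

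Hox genes, which record position along the body axis, were read in colon and hardly at all in blood. Of 27 tested, 23 were called higher in colon and 0 in blood, and 19 had no blood count. Hoxb13, of the hindmost paralog group, was at 265, 283 and 281 CPM in colon with no blood count, at least 2595-fold higher. Hoxd13 and Hoxa13 of the same group were at least 730-fold and 363-fold higher in colon. Per kilobase of exon the colon means of Hoxb13, Hoxd13 and Hoxa13 were 125, 31.3 and 15.6 CPM. Hoxb4, which blood progenitors also express, was not called (0.81, adjusted p = 0.304). The median log2 fold change of the list was 9.54, or 4.78 with the genes absent from blood at their bound.

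Transcription factors of the gut and of blood cells divided by tissue. All 18 gut epithelial factors were higher in colon, with a median of 10.97 (9.24 at the bound). Hnf4a, a nuclear receptor of enterocytes, was at 545, 633 and 685 CPM in colon and 0.689, 0 and 0 CPM in blood (11.88 ± 1.15, adjusted p = 6.02e-04). Cdx1, an intestinal homeobox factor, was at 137, 112 and 114 CPM and Cdx2 at 13.3, 11.4 and 11.5 CPM in colon. Of 19 blood cell factors tested, 13 were higher in blood. Lmo2, a partner of Tal1 in red cell precursors, was at 464, 327 and 841 CPM in blood, 222-fold higher. Ikzf1 and Fli1 were 94.4-fold and 41.1-fold higher in blood. Myb, a factor of progenitors that colon crypts express too, was at 83.4, 73.2 and 77.8 CPM in colon and 9.47, 8.07 and 9.11 CPM in blood (3.14 ± 0.15, adjusted p = 9.97e-05), and Cebpa was 2.67-fold higher in colon.

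**Figure D3:**
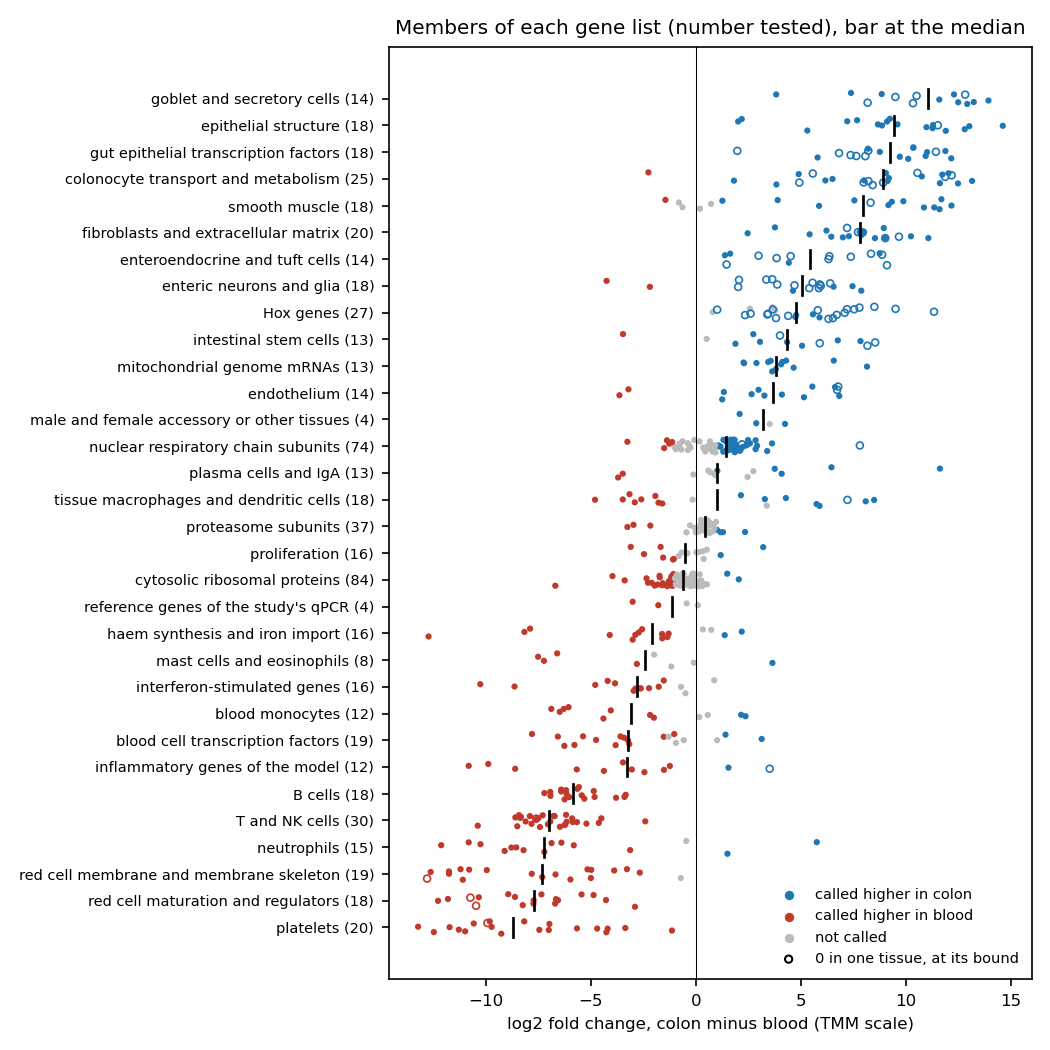
Log2 fold change, colon minus blood (horizontal axis), of each tested gene in 32 lists, 1 row per list. Bars are medians and open circles are genes with no count in one tissue, drawn at their bound: the epithelial, Hox and stromal rows lie mostly right of 0, the red cell, platelet and lymphocyte rows mostly left of it, and the proteasome row around its median of 0.44.

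Within many gene families, members with related functions were called in opposite directions. Of 35 families, 25 had a member called each way, 7 had calls in colon alone and 3 in blood alone. With 34.5% and 20.4% of all genes called, families of several members can hold calls both ways, so the count is a description and the values of the members follow. Levels between members are given per kilobase of exon. Among the haem synthases, Alas2 stood at 75196 CPM per kilobase in blood and 11.7 in colon, and Alas1 at 1.42 and 6. Slc4a1 stood at 731 in blood and 0.118 in colon, and Slc26a3 at 0.0689 and 164. Car2 stood at 1606 in blood and 321 in colon, and Car1 at 6.49 and 1735. In colon Car1 was thus the higher of the pair and in blood Car2. Among membrane skeleton genes, Ank1 stood at 19.3 and 0.126 while Ank3 stood at 0.145 and 1.75.

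Other families divided in the same manner. The tubulin Tubb1 stood at 1325 CPM per kilobase in blood and 0.27 in colon, and Tubb6 at 1.64 and 6.15. The tropomyosin Tpm4 stood at 581 in blood and 48.8 in colon, and Tpm2, of smooth muscle, at 1.47 and 85.3. Prdx2, the peroxiredoxin of red cells, stood at 1251 in blood and 28.5 in colon, and Prdx6 at 53.7 and 526. The glucose transporter Slc2a3 was 159-fold higher in blood and Slc2a1 11.8-fold higher in colon. Ube2l6, an enzyme that attaches ISG15, was 1288-fold higher in blood at a mean of 5371 CPM per kilobase, and its near relative Ube2l3 was 2.37-fold higher in colon. Itga2b was the blood member and Itga3 the colon member of the alpha integrins (889-fold and 332-fold), and Gata1 and Gata6 those of the GATA factors. Among the actins, Actb was 3.43-fold higher in blood (not called without mouse 8, at a log2 fold change of -1.86) and Acta2 642-fold higher in colon.

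**Figure D4:**
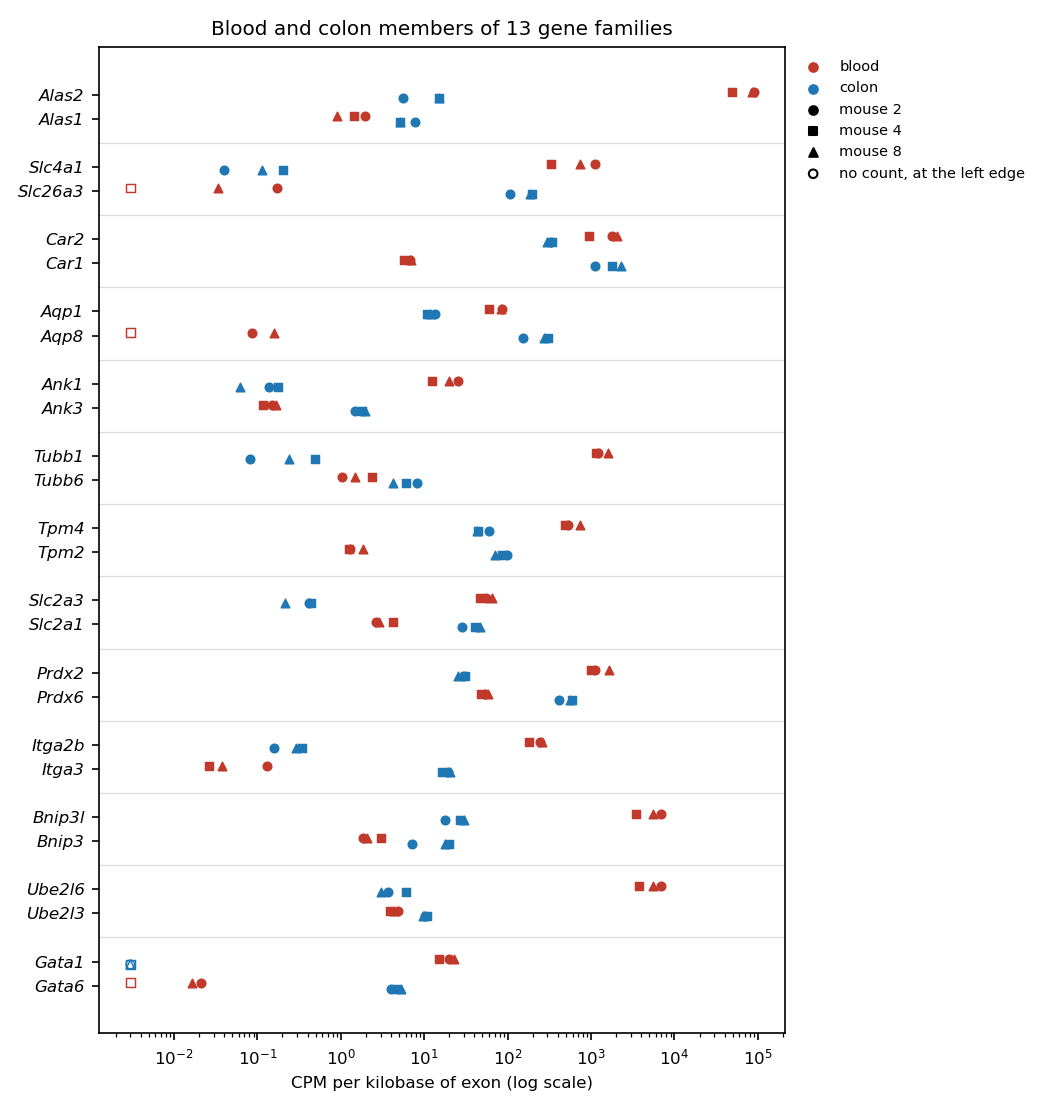
Level in CPM per kilobase of exon (horizontal axis, log scale) of 13 pairs of related genes in the 3 colon and 3 blood libraries of mice 2, 4 and 8. In each pair 1 gene is higher in blood and the other in colon, for example Alas2 at means of 75196 and 11.7 and Alas1 at 1.42 and 6.

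Of the glycolytic enzyme families, 5 had no member called higher in blood. All 3 phosphofructokinases, 3 aldolases, 3 enolases, 2 pyruvate kinases and 2 lactate dehydrogenases were called higher in colon. Aldoa was at 513, 633 and 557 CPM in colon and 137, 81.7 and 107 CPM in blood (2.41 ± 0.28, adjusted p = 0.0011). Ldha was 12.6-fold higher in colon. Pklr, the pyruvate kinase gene that also serves red cells, was at 38.5, 43.3 and 49.2 CPM in colon and 0.735, 0.501 and 0.745 CPM in blood (6.07 ± 0.24, adjusted p = 9.03e-05). Bpgm, which makes the red cell effector 2,3-bisphosphoglycerate, was 484-fold higher in blood. Among hexokinases Hk2 was 10.7-fold higher in colon and Hk3, of myeloid cells, 46.3-fold higher in blood. Both ferritins tested were higher in blood, Ftl1 by 43-fold and Fth1 by 3.66-fold.

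Mitochondrial RNA was a colon feature. All 13 mRNAs of the mitochondrial genome were called higher in colon, with a median log2 fold change of 3.82, and they held 3.21% to 3.41% of the remaining counts in colon and 0.213% to 0.496% in blood. mt-Co1 was at 12233, 13369 and 12796 CPM in colon and 4694, 1943 and 2025 CPM in blood (2.28 ± 0.56, adjusted p = 0.0169). The blood of mouse 2 held more of it than the other blood libraries, and without mouse 8 it was not called (2.10, adjusted p = 0.173). mt-Atp6 was uneven in blood, at 0.0919, 20.9 and 0.0709 CPM, so its estimate of 8.15 ± 1.78 rests on libraries that differ. Of 74 nuclear genes of the respiratory chain, 43 were higher in colon and 5 in blood, with a median of 1.44. The 5 higher in blood were Atp5h, Atp5l, Cox6c, Ndufa4 and Cox6b2, at log2 fold changes of -1.26, -1.50, -1.12, -1.37 and -3.25. With libraries scaled by their totals alone only Cox6b2 of these was called, and without mouse 8 Atp5h was not (-0.97). Cox8a was not called (-0.07 ± 0.20, adjusted p = 0.784).

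Housekeeping assemblies differed less. Of 84 cytosolic ribosomal protein genes tested, 27 were higher in blood and 2 in colon, against 20.4% and 34.5% of all genes. The other 55 were not called, the median was -0.60, and with libraries scaled by their totals alone 6 were higher in blood. Rplp0 was at 1016, 1007 and 1028 CPM in colon and 5194, 4235 and 5413 CPM in blood (-2.27 ± 0.36, adjusted p = 0.00356). Rps26 and Rps27l were the 2 called higher in colon. Of 37 proteasome subunits, 4 were higher in colon and 3 in blood, both under the 34.5% and 20.4% of all genes. The other 30 were not called, and with totals alone 31 were higher in colon. Psmd4, a ubiquitin receptor of the proteasome, was 9.53-fold higher in blood, as were the interferon-induced subunits Psmb8 (7.79-fold) and Psmb9 (4.47-fold). Ubb, a ubiquitin gene, was at 459, 541 and 551 CPM in colon and 12567, 9376 and 16008 CPM in blood (-4.58 ± 0.52, adjusted p = 0.00109). Other genes of high blood CPM were Pabpc1, the poly(A)-binding protein, at 51.7-fold, the adiponectin receptor Adipor1 at 70.3-fold, the guanine deaminase Gda at 128-fold, the ubiquitin ligase March2 at 360-fold and Fam220a at 1443-fold. These 5 genes and Ubb were lowest in the blood of mouse 4 among the blood libraries, where Gda and Pabpc1 were at 5691 and 5073 CPM, and most red cell genes were lowest there too. The part of red cell RNA in these differences was not tested.

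Of 16 interferon-stimulated genes, 13 were higher in blood and 0 in colon, with a median of -2.77. Rsad2, which codes for the antiviral protein viperin, was at 4.95, 15 and 6.88 CPM in colon and 12793, 5277 and 12464 CPM in blood (-10.25 ± 1.00, adjusted p = 6.14e-04). Isg15, the ubiquitin-like modifier, was 395-fold higher in blood, at 589, 352 and 567 CPM. Both were lowest in the blood of mouse 4, as the red cell genes were, whose part in this was not tested. Irf7, a regulator of interferon genes, was 4.68-fold higher in blood, at 13.7, 27.3 and 22 CPM in colon and 129, 65.2 and 101 CPM in blood. Of 16 proliferation genes, 6 were higher in blood, 2 in colon and 8 in neither, against 20.4% and 34.5% of all genes higher in blood and colon. Mki67 was at 154, 138 and 145 CPM in colon and 481, 191 and 315 CPM in blood (-1.08 ± 0.27, adjusted p = 0.0182), a call lost without mouse 2 (-0.79) or mouse 8 (-1.04) and with totals alone (-0.03), and Pcna was not called (0.34 ± 0.17, adjusted p = 0.123). Plk1, a mitotic kinase, was 9.23-fold higher in colon.

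The reference genes of the study's qPCR differed in how alike they were in the 2 tissues. B2m was at 137, 192 and 126 CPM in colon and 1392, 1057 and 1147 CPM in blood, 8-fold higher there (adjusted p = 6.69e-04). Tbp was at 15.3, 14.6 and 14.7 CPM in colon and 10.9, 14.7 and 16.7 CPM in blood, with a 95% interval of the difference from -0.42 to 0.62. Gusb was at 22.9, 16.6 and 17.2 CPM in colon and 27.7, 25.4 and 22.9 CPM in blood, with an interval from -0.84 to -0.02. Actb was called higher in blood, though not with totals alone (-0.74) or without mouse 8 (-1.86). With totals alone Tbp (1.14) was called higher in colon and Gusb lay at 0.61. Of the 4 genes, Tbp and Gusb had intervals within 1 log2 unit of 0.

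Long non-coding RNAs were called in near-equal shares, 26.7% of 1771 tested higher in colon and 26.9% higher in blood, against 39.1% and 19.9% of 15134 protein-coding genes. Neat1, the scaffold of paraspeckles, was at 1952, 1264 and 2061 CPM in colon and 284, 357 and 500 CPM in blood (2.21 ± 0.32, adjusted p = 0.00261). Malat1, chosen after its values were seen, was at 7986, 8629 and 11070 CPM in colon and 8244, 10011 and 9670 CPM in blood and was not called (-0.02, 95% interval -1.23 to 1.19), but with libraries scaled by their totals alone it was called higher in colon (1.02, adjusted p = 0.0238). Firre was 32-fold higher in colon, and Gm3054 was at 195, 173 and 223 CPM in colon with no blood count. Gm15401, an antisense gene whose reads cannot be told from those of its partner, was at 82.6, 81.5 and 73.9 CPM in colon. In blood, 1700020I14Rik, Gm10076 and 1810058I24Rik led, at 7.91-fold, 9.55-fold and 86.8-fold. Gm26917 and Gm42418, also higher in blood, lie at the 45S rRNA locus of chromosome 17, and Gm47299, called higher in blood, shares 77 of its 80 bases with the 7SL gene Rn7s2, and calls for these 3 genes are given with that reservation. Rpph1, the RNA of RNase P, was 5.63-fold higher in blood and uneven there, at 8714, 30322 and 22388 CPM. Without mouse 8, Rpph1, Gm26917 and Gm47299 were not called (-2.35, -2.99 and -5.79), and with totals alone Gm42418 was not (-1.15). Of 164 snoRNA and scaRNA genes, 23 (14%) were higher in blood and 5 (3.05%) in colon, both under the shares of all genes.

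The 5 genes with the lowest p in each direction had narrow spreads within each tissue. Towards colon these were Ptprf (a receptor phosphatase, 10.16 ± 0.26), Epb41l4b (9.62 ± 0.25), Sel1l3 (8.83 ± 0.25), Fam135a (8.11 ± 0.23) and the pseudogene Gm27149 (8.79 ± 0.24), whose reads may belong to a copy. Towards blood they were Atp8b4, a phospholipid flippase (-6.95 ± 0.19), Rhoh, a GTPase of blood cells (-7.13 ± 0.19), Il18rap, of the interleukin-18 receptor (-7.34 ± 0.20), Tmem71 (-6.65 ± 0.19) and the lncRNA Gm2682 (-8.16 ± 0.22). All 10 had an adjusted p of 9.03e-05, the lowest of the fit, which other genes shared.

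The same comparison was made in mouse 1, labelled UC, and mice 7 and 9, labelled control, whose colon S100a8 lay above the limit and whose libraries are separate from those above. Of 21148 genes tested there, 33.5% were called higher in colon and 18.2% higher in blood. Among 19951 genes tested in both sets of mice, 5814 were called higher in colon in both, 84.9% of the calls in mice 2, 4 and 8 and 88.7% of those in mice 1, 7 and 9. For blood, 3248 genes were called in both, 79.4% and 87.7%. Some lists differed more. In mice 1, 7 and 9, of 11 mast cell and eosinophil genes tested, 5 were called higher in colon and 2 in blood. Of 16 interferon-stimulated genes, 3 were higher in colon and 8 in blood there, with a median log2 fold change of -0.96. Both are to be read against the 33.5% and 18.2% of all genes. Alas2, Krt8 and Epcam were at log2 fold changes of -13.48, 13.47 and 10.01 there. In total 12 genes were called in opposite directions, namely Apol10a, Atp7b, Btnl2, Capg, Chn2, Gm15925, Ifi205, Il5ra, Pde11a, Ppp1r3b, Sema7a and Socs1. Il5ra, the interleukin-5 receptor of eosinophils, was at 0.0901, 0.217 and 0 CPM in colon and 15, 13.9 and 12.6 CPM in blood of mice 2, 4 and 8 (-7.22 ± 0.81), and its log2 fold change was 1.44 in mice 1, 7 and 9. The difference between the 2 sets of mice was not tested, and the sets were made by a colon gene. Eno3 and Pkm, called higher in colon in mice 2, 4 and 8, were not called in mice 1, 7 and 9 (-0.79 and 0.61).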

How the data were processed

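Total RNA of colon and whole blood was sequenced, and 6 libraries of 3 mice were analysed for this comparison. According to the study's methods, the authors trimmed reads with Flexbar, removed rRNA reads with bbduk, mapped reads to GRCm38 using STAR, and ran StringTie 1.3.4c on Ensembl release 92 genes at default options, which set no strand. The deposited counts per gene were derived by the authors from StringTie's coverage, so they are estimates in whole numbers and not reads tallied per gene. The deposited normalized values, a signal scale with 1 table per tissue, are counts that the authors divided by 1 DESeq2 factor per library. They were used here only for S100a8 and to find genes left out of a table, since the tables were normalized separately.

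Genes with counts that were missing from the blood table (94) or the colon table (155), 165 in all and among them 7SL genes, were dropped before scaling. They held 57.4% to 67.9% of blood counts and 10.6% to 18.7% of colon counts. The 14 globin genes named by symbol stayed in the scaling and were not tested. Counts were filtered with filterByExpr, scaled by TMM and tested with edgeR 4.0.16 (R 4.3.3, limma 3.58.1) by the quasi-likelihood test with the mouse as a block and Benjamini-Hochberg adjustment, leaving 2 residual degrees of freedom (median prior 3.39) and a common biological coefficient of variation of 0.313. The SE is the log2 fold change divided by the root of the F statistic. Gene types, positions and exon lengths came from GENCODE M21, which matched 53706 of 53801 gene identifiers. The scripts were tested on simulated data in which few genes changed, by steps of the same sizes up and down. In these libraries 54.9% of genes were called, so that simulation does not bear on the choice of scaling. A library in which a gene had no count was given a floor of 3 counts when a bound on a fold change was computed, and 3 counts equalled 0.0752 to 0.138 CPM in blood and 0.0233 to 0.0353 CPM in colon, for counting error only.

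The pairing by mouse comes from the study's design, which took both tissues from the same animal. Deviations from the tissue means correlated across genes at -0.00685, 0.0254 and -0.0036 for the 2 libraries of mice 2, 4 and 8. For libraries of different mice the correlations ran from -0.0237 to 0.0231. Values of this size do not show that libraries of the same mouse deviate together. P-values measure only the spread between 3 mice, and the labels mix disease states, with 2 UC mice and 1 control, so no disease comparison was made. The mice, gene lists and tests were chosen with earlier results of these data known. Named genes are, in each direction, the 10 protein-coding genes of highest CPM, the 5 of lowest adjusted p and the 5 lncRNAs of highest CPM, then up to 4 of highest mean CPM in each list, members against their list's direction and the pair that divides a family. Some genes that this rule names are not reported here. Further list members are examples chosen with values seen. Gm47299, Rpph1 and Malat1 were chosen after their values were seen. Alternatives were DESeq2 1.42.0, limma-voom, other scalings, filters and thresholds, leaving out each mouse, no block, and all 12 libraries. Promoter windows are RefSeq's.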

Additional observations from a re-analysis of the deposited data

How the results depend on the processing

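Counts of called genes, overall and by list, kept within 1.5 times of their values in 595 of 612 recalculations. The exceptions rest on scaling, threshold, filter or mouse. With libraries scaled by their totals alone, 11275 genes called higher in colon and 2590 genes called higher in blood were found, with 2 proliferation, 1 qPCR reference and 6 cytosolic ribosomal protein genes called higher in blood and 31 proteasome subunits higher in colon. Under that scaling log2 fold changes turned to 0.42 for Flna, 0.01 for Top2a, 0.61 for Gusb, 0.05 for Atp5b, 0.98 for Cox8a and 1.02 for Malat1, of which Top2a alone was called before and Malat1 alone after. Upper-quartile scaling gave 2 proteasome subunits higher in colon and -0.14 for Tbp. Without a filter on low counts Cox8a was 0.06 and Malat1 0.11. An adjusted p of at most 0.01 left 9 enteroendocrine and tuft cell genes and 1 gene of other tissues, and fitting all 12 libraries gave 7 proteasome subunits higher in colon.

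Leaving out each mouse in turn gave 9 to 11 enteroendocrine and tuft cell genes higher in colon, lowest without mouse 4, 1 to 2 qPCR reference genes higher in blood, lowest without mouse 8, and 17 to 28 ribosomal protein genes higher in blood, lowest without mouse 8. Log2 fold changes ran from -0.09 (without mouse 2) to 0.25 for Tbp, from -0.24 to 0.10 for Cox8a and from -0.11 to 0.08 for Malat1. Without the replicate block 7595 genes called higher in colon and 4528 genes called higher in blood were found, and no count moved by over 1.5 times. Among recalculations for single named genes that kept their direction, 76 lost a call and 16 gained one, and of the 13 that changed direction Top2a lost its call and Malat1 gained one, both with totals alone. Alas2 stayed on the same side of the threshold under all but 1 of them, without mouse 8.

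3 alternatives were chosen after seeing the data. Testing only genes present in both normalized tables removes genes absent from one tissue, and gave 5 enteroendocrine and tuft cell, 6 enteric neuron and glia and 10 Hox genes higher in colon. Scaling and testing protein-coding genes alone left 3 genes of plasma cells and IgA higher in colon and put Tbp at -0.02. Dropping genes at the 7SL and 45S loci changed no list count by over 1.5 times. The cause of the other changes was not tested.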
